A study of Homo sapiens with 4 samples.

Results

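Septins are GTP-binding cytoskeletal proteins that assemble into rods, filaments and rings at the cell cortex and at the furrow of dividing cells. Rods are built from several different septins, and subunits of one homology group can replace each other within the rod. A circular RNA forms when the spliceosome joins a downstream splice donor back to an upstream acceptor (a back splice), so one septin gene can give many circles that differ in which exons they enclose. HNRNPL, the protein reduced in this study, binds RNA and regulates splicing.

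The circles described here are those whose gene name in the deposited table includes SEPTIN2, SEPTIN6, SEPTIN7, SEPTIN8, SEPTIN9, SEPTIN10 or SEPTIN11 and whose type is not antisense. They numbered 164 of 211599 circles in the table, and 146 of them had at least 1 count. These 7 genes are the septins, of 13 looked up, with any count in a circle of this kind. They were thus chosen by a measured value, detection, and the family was proposed with results of these data in view. The list says nothing about which septins can form circles. SEPTIN3 had 1 such circle in the table, with 0 counts in all libraries, and SEPTIN1, SEPTIN4, SEPTIN5, SEPTIN12 and SEPTIN14 had none. By gene, 48 circles came from SEPTIN2, 44 from SEPTIN11, 36 from SEPTIN10, 25 from SEPTIN7, 6 from SEPTIN6, 4 from SEPTIN9 and 1 from SEPTIN8.

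The cells of all 4 libraries were a radioresistant derivative of the breast cancer line MDA-MB-468, selected by a total of 50 Gy given in fractions. Both groups therefore carry the radiation history, and no unirradiated cells were analysed here. The 2 control libraries came from cells with a control hairpin RNA (shCtrl) and the 2 knockdown libraries from cells with 1 stable hairpin against HNRNPL (shHNRNPL), which the labels give as genotypes WT and HNRNPL knockdown. The Induro reverse transcriptase made the cDNA, phi29 polymerase amplified the product, and long reads were taken on a Nanopore instrument. The labels do not say whether the knockdown cells were 1 clone or a pool. The series' design text calls the replicates biological, without naming separate cultures. The knockdown rests on the labels, since HNRNPL was not analysed here.

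Library totals ran from 282737 to 556578 counts, and a count of 0 allows up to 3 counts, between 0.539 and 1.06 per 100000 counts of a library. Of 12 epithelial and MDA-MB-468 marker genes, 9 had circles. EPCAM had 35 and 38 counts in the controls, against 15 and 20 in the knockdown libraries. That is 7.41 and 6.83 against 5.31 and 5.12 per 100000 of library totals, lower in both knockdowns. The log2 fold change in edgeR was -0.14 after TMM scaling, which differs from scaling by library totals. The summed level of the marker list was 132 and 88.8 per 100000 in the controls, against 60.5 and 57.6 in the knockdown libraries. GRHL2 alone gave 88.3 and 66.8 of it in the controls, against 44.2 and 40.2. Of the 6 markers tested, 2 had a positive log2 fold change and 4 a negative one. Their median was -0.35, beside -0.26 over all host genes. All 15 marker genes of fibroblasts, endothelium and leukocytes had 0 counts.

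Control replicate 1 stood apart in where its septin circles begin and end. The usual back splice joins an AG acceptor to a GT donor. Circles that the table gives with the motif AG-GT, no further mark and offset 0-0 are called AG-GT circles here, although no key to the mark and the offset was among the sources used. Control replicate 1 had 66.8% of its septin counts in such circles, whereas control replicate 2 had 88.9% and the knockdown libraries 86.2% and 84.2%. Among circles of all other named genes the shares were 55.3%, 74.4%, 74.6% and 74.8% in the same order, with control replicate 1 again the lowest. Control replicate 1 held 53 of the 80 septin circles seen in a single library, control replicate 2 held 13, and the knockdown libraries 2 and 12.

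Some circles of control replicate 1 began at the transcription start of the gene. With a window of 25 nt around a RefSeq start, 52 septin counts (7.93% of the library's septin counts) in control replicate 1 lay in such circles. There were 0 in the other control, and 2 and 4 in the knockdown libraries (0.690% and 0.903%). The other named genes gave 2.84% in control replicate 1 and 0.751%, 0.913% and 0.876% in the others. The septin circles were of SEPTIN2 and SEPTIN7 only, 8 in all, and 0 of them had the AG-GT motif at offset 0-0. The bases at which they begin are shown because they mark circles that separate one library from the rest. Both stretches are 30 bases of RefSeq sequence (GRCh38.p14, plus strand), with the 15th base at the annotated start and capitals at the first base of each circle.
SEPTIN2, chr2:241315911-241315940: gtGagcggacCgcgagcgctgggcGggtcc
SEPTIN7, chr7:35801205-35801234: aggggatgtcggtCAgTgcgagatccgCtg
The 3 SEPTIN2 circles beginning here had 9, 9 and 15 counts in control replicate 1 and at most 2 in any other library, and a further one beginning at 241315946 had 5 and 0. For these 3 the table gives the motifs GT-AG, AC-GG and GC-GG. The 4 SEPTIN7 circles beginning here had 9, 3, 0 and 2 counts in control replicate 1, and the third had 1 count in each knockdown. The family sums and those of SEPTIN2, SEPTIN7 and SEPTIN11 are also given for AG-GT circles alone.

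**Figure D1:**
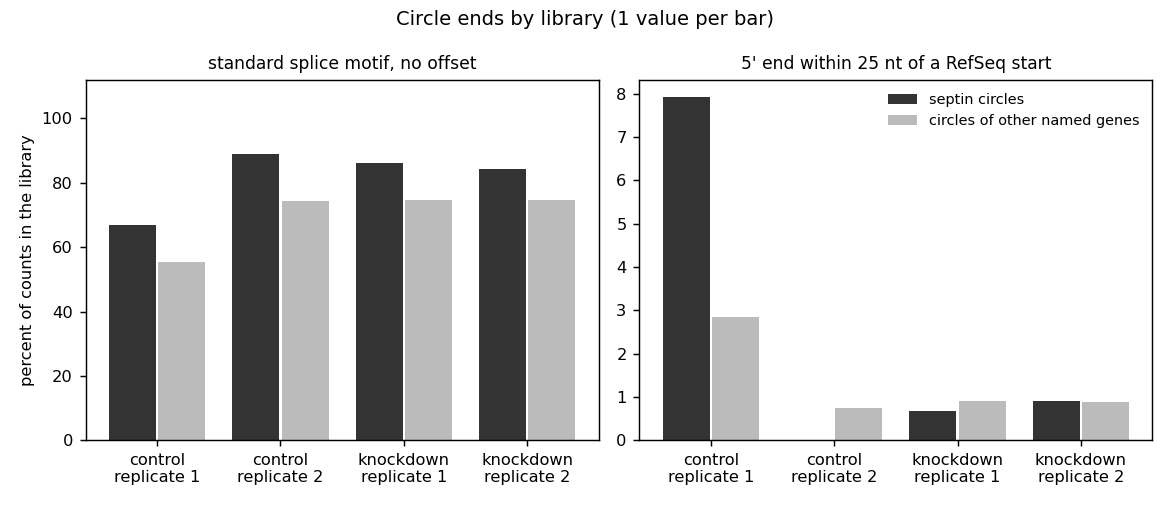
Each bar is 1 library's percent of counts in circles with the AG-GT motif at offset 0-0 (left) or with the 5′ end within 25 nt of a RefSeq transcription start (right), for septin circles (dark) and circles of other named genes (light), on linear axes from 0. Control replicate 1 is lowest on the left, at 66.8% for septins, and highest on the right, at 7.93% for septins.

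The summed level of septin circles was lower in the knockdown libraries, but by library totals by less than the median host gene. Their summed level was 139 and 157 counts per 100000 in the controls, against 103 and 113 in the knockdown libraries. The group means were 148 ± 13.1 and 108.0 ± 7.68 (SD, n = 2), a ratio of 0.729 or -0.46 on the log2 scale. Under the same scaling by library totals, host genes had a median log2 fold change of -0.58, and 36.7% of host genes lay lower in both knockdowns. With library sizes scaled by TMM factors fitted on circles the log2 ratio of the sum was -0.51, beside a median log2 fold change of -0.41 over circles. The median over host genes was -0.26 with TMM factors fitted on host genes. The sum was not scaled by those factors, so it cannot be set beside that median. For the septin sum by library totals, the groups did not overlap. The exact two-sided permutation test gave p = 0.33, the smallest that 2 against 2 libraries allow. The summed level of the epithelial markers was also lower in both knockdowns (above), and its part in this result was not tested. In bulk RNA, fewer cells carrying a circle and less of it per cell cannot be told apart. SEPTIN10 held 74.1% of all septin counts, SEPTIN2 12.5%, SEPTIN11 9.01% and the other 4 genes the rest. Without SEPTIN10 the summed level was 49.7 and 36.5 per 100000 in the controls, against 19.8 and 23.8 in the knockdown libraries, a ratio of 0.506. In AG-GT circles without SEPTIN10 it was 14.6 and 27.8 per 100000 in the controls, against 14.1 and 13.6 in the knockdown libraries, a ratio of 0.653, and control replicate 1 almost met the knockdowns. In AG-GT circles alone, the sum over all septins was 92.7 and 140 per 100000 in the controls, against 88.4 and 95.5 in the knockdown libraries, and control replicate 1 lay between the knockdowns. That control exceeded both knockdowns only with the circles of other motifs added, while control replicate 2 exceeded them in both sets.

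Scaled by circle length, over circles of all motifs, SEPTIN10 was the most abundant source of septin circles, at 106 ± 23.1 counts per 100000 per kb in the controls and 96.8 ± 5.78 in the knockdowns (SD, n = 2). SEPTIN2 followed at 27.7 ± 1.59 and 11.6 ± 1.10, and SEPTIN11 at 12.3 ± 1.83 and 5.90 ± 1.93 (SD, n = 2). SEPTIN7 came next at 2.78 ± 2.53 and 4.42 ± 2.26 (SD, n = 2), and SEPTIN6 had 1.90 ± 0.253 and 1.37 ± 0.310 (SD, n = 2). SEPTIN7 and SEPTIN6 did not differ beyond their spread in the controls. SEPTIN9 and SEPTIN8, with 7 and 2 counts in total, were not ordered.

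**Figure D2:**
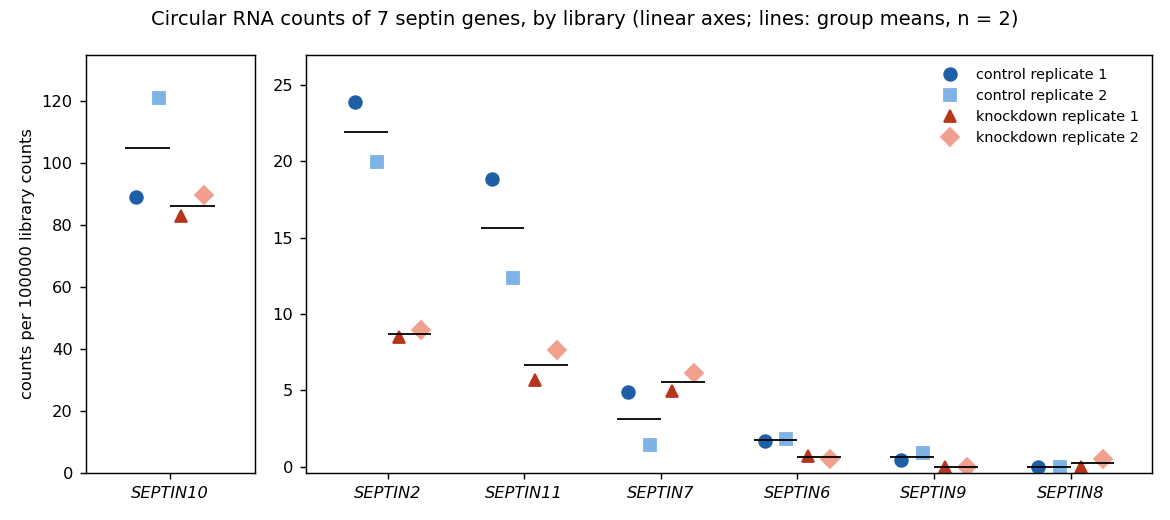
Each point is 1 library's counts per 100000 for 1 septin gene, summed over its circles, with group means as lines (n = 2) and linear axes that differ between the panels. SEPTIN2 and SEPTIN11 lie lower in both knockdowns than in both controls, while for SEPTIN10 control replicate 1 (89.1) lies between the knockdowns (82.8 and 89.6).

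Host genes were compared on counts summed over all their circles, in edgeR's quasi-likelihood test over 8388 genes with at least 10 counts. Of the septins 5 could be tested and 0 passed an adjusted p of 0.05 in edgeR, where 0.441% of all host genes passed. At an unadjusted p under 0.05 there was 1, SEPTIN2, where 13.7% of all host genes were, and DESeq2 also called 0, giving no adjusted p for 1. Groups did not overlap for 3 of the 5 in the lower direction (SEPTIN2, SEPTIN6 and SEPTIN11) and 1 in the higher (SEPTIN7), against 36.7% and 15.3% of all host genes. Without control replicate 1, 2 septins passed, SEPTIN2 and SEPTIN7 (log2 fold changes -1.02 and 2.11), as did 19.8% of all host genes. Without control replicate 2, 3 passed, SEPTIN2, SEPTIN10 and SEPTIN11 (-0.88, 0.52 and -0.90), as did 33.3% of all host genes, and without either knockdown replicate 0 did. In the fits without a control replicate the spread between replicates comes from the knockdown pair alone, and in those without a knockdown replicate from the control pair alone.

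Among subunits of the SEPTIN6 homology group, which can replace each other within a rod, SEPTIN10 had the most counts, and its circles were present in different proportions in the knockdown libraries. The gene (chromosome 2, 109542799 to 109613966, minus strand) had 421 and 673 counts in the controls, against 234 and 350 in the knockdown libraries, or 89.1 and 121 against 82.8 and 89.6 per 100000. The groups overlapped, and edgeR's log2 fold change with TMM factors fitted on host genes was 0.00 ± 0.39 (SE, adjusted p = 0.997). With library-size scaling it was -0.28, and without control replicate 1 -0.32, so the sign is not settled. Of its 36 circles 32 had a count and 7 had at least 10. Gene spans are those of RefSeq on GRCh38.p14.

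These 7 circles of SEPTIN10 were built from 8 exon blocks of chromosome 2, numbered b1 to b8 here in the direction of transcription on the minus strand. The blocks are those of the table's first isoform, and their number in the full gene was not determined. Block b1 (69 nt, 109593051 to 109593119) was the first block of 4 of the 7 circles and b2 (118 nt, 109585721 to 109585838) that of the other 3. The last block varied: b3 (196 nt), b4 (187 nt), b5 (162 nt), b7 (169 nt) or b8 (133 nt, 109553087 to 109553219). Over all SEPTIN10 circles with a count, the acceptor of b1 took 88.1% of the counts and the donor of b7 84.2%. The 2 circles that end in b8 carry the motif AG-GC, the other 5 AG-GT, all at offset 0-0.

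**Figure D3:**
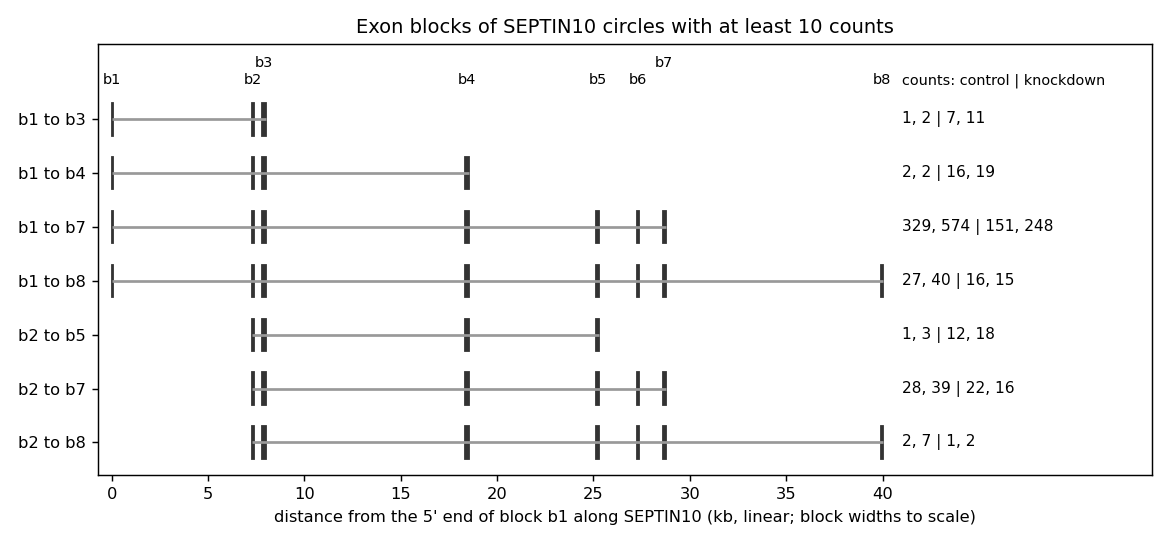
Each row is 1 SEPTIN10 circle with at least 10 counts, with its exon blocks drawn to scale along the distance from the 5′ end of b1 (kb) and its counts in control replicates 1 and 2 and knockdown replicates 1 and 2 at the right. The 3 circles that end in b3, b4 or b5 have at most 3 counts in any control and at least 7 in each knockdown.

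The leading circle joined b1 to b7 (chromosome 2, 109564366 to 109593119, 7 blocks, 998 nt) and alone held 57.5% of all septin counts. It had 329 and 574 counts in the controls, against 151 and 248 in the knockdown libraries. Its level was 86.4 ± 23.7 per 100000 in the controls and 58.5 ± 7.14 in the knockdowns (SD, n = 2), with both knockdowns below both controls. The log2 fold change with TMM factors fitted on circles was -0.60 ± 0.31 (SE, adjusted p = 0.437 in edgeR). It is not on the scale of the TMM value of the gene. With library-size scaling the circle had -0.56 and the gene -0.28. The circle from b2 to b7 (109564366 to 109585838, 929 nt) had 28 and 39 counts in the controls, against 22 and 16 in the knockdown libraries, and its groups overlapped at 6.47 ± 0.764 and 5.94 ± 2.61 per 100000 (SD, n = 2). The circle from b1 to b8 (109553087 to 109593119, 1131 nt) had 27 and 40 counts against 16 and 15.

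The 3 shorter circles lay in the opposite direction. The circle from b1 to b4 (chromosome 2, 109574581 to 109593119, 570 nt) had 2 counts in each control and 16 and 19 in the knockdowns. That is 0.391 ± 0.0453 against 5.26 ± 0.561 per 100000 (SD, n = 2). Its fitted log2 fold change was 3.61 ± 0.61 (SE). The circle from b2 to b5 (109567815 to 109585838, 663 nt) had 1 and 3 counts in the controls, against 12 and 18 in the knockdown libraries, a log2 fold change of 3.41 ± 0.65 (SE). The circle from b1 to b3 (109585126 to 109593119, 383 nt) had 1 and 2 counts against 7 and 11, a log2 fold change of 3.05 ± 0.81 (SE). In all 3, each knockdown lay above each control although the knockdown libraries were less deep.

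Because the controls held so few counts, the ratios carry wide counting intervals. The ratio of pooled rates, with its exact 95% Clopper-Pearson interval for counting error only, was 13.4 (4.78 to 51.8) for b1 to b4, 11.5 (4.04 to 44.8) for b2 to b5 and 9.17 (2.68 to 48.6) for b1 to b3. Amplified reads without molecular identifiers are not independent molecules, and the intervals leave out the spread from amplification. The adjusted p in edgeR over 21576 circles was 0.104, 0.124 and 0.199, none past 0.05. Of 21 septin circles tested 0 passed, where 0% of all circles did. At an unadjusted p under 0.05 in edgeR there were 3, these same circles, where 13.6% of all circles were. DESeq2 called 2 of them (b1 to b4 and b2 to b5) and 5.03% of all circles, giving no adjusted p for 10 of the 21. With the replicate number as a block edgeR called the same 2 septin circles and 7.51% of all circles, and with at least 5 counts in each of 2 libraries it called all 3 and 12.1% of all circles. All 3 met that filter, and the minimum of 10 counts, only through the knockdown libraries.

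The calls depended on which library was left out. Without knockdown replicate 1 none of the 3 passed in edgeR (adjusted p = 0.699 for each), nor without knockdown replicate 2 (0.695 for each), with log2 fold changes of 2.96 to 3.70, and 0% of all circles passed. All 3 passed without control replicate 1 and without control replicate 2. In these fits 4 and 7 of the 21 septin circles passed, near the 20.2% and 28.7% of all circles. The fourth without control replicate 1 was the leading circle, with a log2 fold change of -0.60. The other 4 without control replicate 2 were circles of SEPTIN2 and SEPTIN11 present mainly in control replicate 1.

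**Figure D4:**
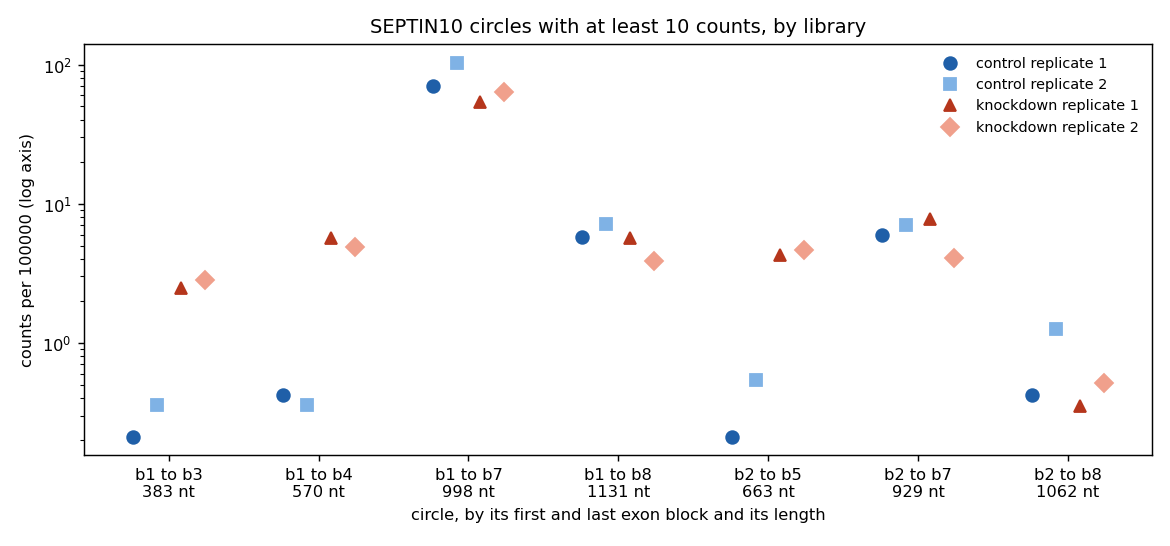
Each point is 1 library's counts per 100000 for 1 SEPTIN10 circle, on a log axis, with circles ordered by first and last exon block. The circles of 383, 570 and 663 nt are higher in both knockdowns, and the 998 nt circle lies at 53.4 and 63.5 per 100000 in the knockdowns against 69.6 and 103 in the controls.

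The same circles were then expressed as shares of the SEPTIN10 counts of each library. The 3 short circles held 0.95% and 1.04% of SEPTIN10 counts in the controls, against 15.0% and 13.7% in the knockdown libraries. They were grouped after their values had been seen. Counting every AG-GT circle of up to 4 blocks, whatever its count, gave 2.14% and 1.19% against 15.0% and 14%. The leading circle held 78.1% and 85.3% of SEPTIN10 counts in the controls, against 64.5% and 70.9% in the knockdown libraries. The mean number of blocks per count was 6.66 and 6.97 in the controls, against 6.38 and 6.40 in the knockdown libraries. No library of one group reached the other group in any of these 4 measures (exact permutation test, p = 0.33 for each, the smallest possible). The 4 measures draw on the same counts, and the limit of 4 blocks followed from circles already seen to be higher. They therefore restate 1 observation and are not separate support for it.

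By splice site, the highest ratios of knockdown to control were those of 3 donors. The donors of b3, b4 and b5 were used by 1, 2 and 1 counts in control replicate 1, 2, 2 and 3 in control replicate 2, 7, 16 and 12 in knockdown replicate 1 and 12, 19 and 21 in knockdown replicate 2. The ratios of group means were 9.72, 13.4 and 12.8. They restate the short circles, which held 21, 39 and 34 of the 22, 39 and 37 counts of these donors. The donors of b7 and b8 had ratios of 0.689 and 0.755, and the acceptors of b1 and b2 0.766 and 1.41.

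Circle use, whether circles of the same gene differ in their change, was tested for each gene (edgeR's diffSpliceDGE, F test per gene, on circles that name 1 gene). Among 2327 genes with at least 2 circles of 10 counts, 4.08% passed an adjusted p of 0.05, and among 3 testable septins 1 did. SEPTIN10 passed with an adjusted p of 1.53e-04, from 7 circles. Its short circles b1 to b4, b2 to b5 and b1 to b3 had 4, 4 and 3 counts in the controls together, against 35, 30 and 18 in the knockdowns. They thus reached the minimum of 10 counts only through the group where they are high, and this p is a description, not independent support. Within it, the circles b1 to b4 and b2 to b5 differed from the rest of the gene by log2 changes of 2.74 and 2.60 (edgeR, adjusted p = 0.00715 and 0.0163), and b1 to b3 by 2.35 (adjusted p = 0.196). SEPTIN2 (8 circles) and SEPTIN11 (5 circles) had adjusted p of 0.817 and 0.684 in edgeR. The call of SEPTIN10 was lost without knockdown replicate 1 (adjusted p = 0.650 in edgeR) and without knockdown replicate 2 (0.951), where 1 gene of 2327 passed each time and the spread comes from the control pair alone. Without control replicate 2, SEPTIN2 and SEPTIN11 also passed, as did 44.7% of all genes tested.

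SEPTIN11 (chromosome 4, 76949752 to 77040154, plus strand), a further SEPTIN6-group subunit, gave many low circles and no dominant one. It had 89 and 69 counts in the controls, against 16 and 30 in the knockdown libraries, or 18.8 and 12.4 against 5.66 and 7.68 per 100000. Both knockdowns lay below both controls, with a log2 fold change of -0.88 ± 0.40 (SE, adjusted p = 0.386 in edgeR). In AG-GT circles the levels were 5.50 and 8.98 per 100000 in the controls, against 4.95 and 3.84 in the knockdown libraries, still without overlap. Of its counts 51.5% lay in AG-GT circles. A pair of acceptors, at 76995781 and 76996425 on chromosome 4, took 31.9% and 29.4% of its counts, over 8 and 5 circles.

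The most abundant circle of SEPTIN11 (chromosome 4, 76996425 to 77020670, plus strand, 6 blocks, 926 nt) had 5 and 13 counts in the controls, against 6 and 7 in the knockdown libraries, and its groups overlapped. The circle with the same donor and the upstream acceptor (76995781 to 77020670, 7 blocks, 1084 nt) had 8 and 12 counts against 3 and 1. Its levels were 1.92 ± 0.327 and 0.659 ± 0.569 per 100000 (SD, n = 2), and edgeR fitted a log2 fold change of -1.63 ± 0.93 (SE, adjusted p = 0.437 in edgeR). Summed over circles, the upstream acceptor had a knockdown to control ratio of 0.501 and the other 0.665. A SEPTIN11 circle that had 10 counts in control replicate 1 (77019184 to 77036445) had 0 in the 3 other libraries.

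SEPTIN6, the subunit that names the group, had 8 and 10 counts in the controls and 2 in each knockdown, or 1.69 and 1.80 against 0.707 and 0.512 per 100000. Its log2 fold change was -1.20 ± 1.12 (SE, adjusted p = 0.654 in edgeR). The counts per knockdown library lie under the limit of 3 counts, so the level there is not resolved. The one SEPTIN6 circle found in all libraries (chromosome X, 119640692 to 119653040, 3 blocks, 446 nt) had 2 counts in each. SEPTIN8, the remaining member of the group found here, had 2 counts, both in knockdown replicate 2 and in 1 circle of 930 nt. SEPTIN9 had 2 and 5 counts in the controls and 0 in both knockdowns, all in intron circles, and this difference was not detectable at this depth.

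SEPTIN2 (chromosome 2, 241315355 to 241354027, plus strand), a GTP-hydrolysing subunit of the rod, was the only septin gene with an unadjusted p under 0.05. It had 113 and 111 counts in the controls, against 24 and 35 in the knockdown libraries. The levels were 21.9 ± 2.81 and 8.73 ± 0.335 per 100000 (SD, n = 2), a ratio of 0.398, and the fitted log2 fold change was -1.01 ± 0.34 (SE, adjusted p = 0.276 in edgeR). Both knockdowns lay below both controls. In AG-GT circles the levels were 8.26 and 17.1 per 100000 in the controls, against 6.37 and 7.17 in the knockdown libraries, so control replicate 1 came close to the knockdowns once its other circles were set aside.

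Among SEPTIN2 circles the acceptor at chromosome 2, 241325993 (plus strand), took 41.7% of the counts, over 6 circles that differ in their donor. The most abundant ran to 241343093 (6 blocks, 687 nt) and had 9 and 33 counts in the controls, against 6 and 11 in the knockdown libraries, with overlapping groups. Those running to 241343897 and 241348191 (7 and 9 blocks, 833 and 975 nt) had 4 and 10 and 7 and 6 counts in the controls, against 1 and 1 and 1 and 0. The one running to 241337790 (5 blocks, 585 nt) had 3 and 2 counts against 3 and 4 and was the one tested SEPTIN2 circle with a positive log2 fold change, 0.94 ± 1.25 (SE, adjusted p = 0.721 in edgeR). The next in abundance began near the transcription start (241315935 to 241337765, 634 nt) with 15 and 0 counts against 1 and 2.

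SEPTIN7 (chromosome 7, 35800986 to 35915763, plus strand), the one member of its own homology group and a subunit common to the rods, lay in the other direction. It had 23 and 8 counts in the controls, against 14 and 24 in the knockdown libraries, or 4.87 and 1.44 against 4.95 and 6.15 per 100000. The log2 fold change was 1.19 ± 0.63 (SE, adjusted p = 0.434 in edgeR), and 2.11 (adjusted p = 0.00384 in edgeR) without control replicate 1 but 0.77 (adjusted p = 0.201 in edgeR) without control replicate 2. In AG-GT circles SEPTIN7 had 1 and 2 counts in the controls, against 6 and 8 in the knockdown libraries. A circle of 2880 nt (chromosome 7, 35879823 to 35885879, plus strand) had 0 counts in both controls and 5 and 4 in the knockdowns. Its knockdown mean was 2.38-fold a floor of 3 counts per control library. That ratio leaves out the counting error of the knockdowns and is not a lower bound. The circle was not tested, having fewer than 10 counts. The one SEPTIN7 circle with 10 counts (35863603 to 35905072, 11 blocks, 1873 nt) had 1 and 3 counts against 3 and 3. Near-identical SEPTIN7 pseudogenes also had circles in the table, so reads could be split between SEPTIN7 and these copies.

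Over the family, 21 circles had at least 10 counts. Groups did not overlap for 5 of them in the higher direction and 6 in the lower, against 23.2% and 22.9% of all circles with at least 10 counts, so the counts lie near the background in both directions. Their median log2 fold change was -0.66, beside -0.41 over all circles tested. Of the 5 higher circles 3 were the short SEPTIN10 circles, 1 came from SEPTIN2 and 1 from SEPTIN7. The circles with 1 to 9 counts, 125 of 146, were not tested.

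The number of different septin circles was also compared at equal depth, with each library thinned to 282737 counts. The expected number was 78.3 and 48.1 in the controls, against 42 and 53.8 in the knockdown libraries, and the groups overlapped (exact permutation test, p = 0.667). The count-weighted median length of septin circles was 998 nt in all 4 libraries, the length of the leading SEPTIN10 circle. Without SEPTIN10 it was 1066 and 971 nt in the controls and 926 nt in both knockdowns. The leading circles of SEPTIN10, SEPTIN2 and SEPTIN11 shared a structure of 6 or 7 blocks and a length of 687 to 998 nt, with AG-GT at both ends.

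Of 46 other genes of septin assembly and cytokinesis, 36 had circles and 31 could be tested. These were 0 of 6 further septins, 8 of 15 septin-binding and regulating genes, such as the exocyst subunit EXOC4, and 23 of 25 cytokinesis genes. In edgeR 0 passed an adjusted p of 0.05, with 8 higher and 5 lower at an unadjusted p under 0.05 (13.7% of all host genes were under it). DESeq2 called 1, where it called 2.21% of all host genes, and gave no adjusted p for 9. Their median log2 fold change was -0.16, beside -0.26 over all host genes. KIF20B, a kinesin of late cytokinesis, had the smallest adjusted p (0.0601 in edgeR), with 120 and 191 counts in the controls, against 329 and 590 in the knockdown libraries. CENPE, a kinetochore kinesin that binds SEPTIN7, had 49 and 70 counts in the controls, against 60 and 96 in the knockdown libraries, a log2 fold change of 1.29 ± 0.36 (SE, adjusted p = 0.201 in edgeR). PRC1, which bundles midzone microtubules, had 176 and 196 counts against 42 and 48, a log2 fold change of -1.11 ± 0.33 (SE, adjusted p = 0.218 in edgeR). Without control replicate 1 11 of the list passed, 9 higher and 2 lower, and without control replicate 2 18 did, 11 higher and 7 lower, where 19.8% and 33.3% of all host genes passed.

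The host genes whose levels over the 4 libraries were most like the septin sum were ANKHD1-EIF4EBP3, ANKHD1 and DDX21. Their root mean square differences from the septin profile in centred log2 counts per 100000 (with 0.5 added) were 0.019, 0.023 and 0.024, the smallest of 1763 host genes with at least 200 counts. The first of these is a read-through gene that shares circles with ANKHD1. With 4 libraries such a match is a description of these libraries only.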

How the data were processed

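The members and gene lists were chosen with earlier results of these data known. Each row of the deposited table is 1 circle, names CIRI-long as its source in a column of its own, and holds raw counts, not normalized, per the file headers. GRCh38.p14 is named in the submitters' processing notes; the caller's version, the aligner and the filters are not given in the sources used here. The deposited circle length is in nt. Of 164 septin circles 163 lay within the RefSeq span of their gene. The second deposited table, the same counts rescaled, was not used.

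Circles, and host genes summed over all circles naming them and not antisense (a circle naming several genes counts for each), were tested with at least 10 counts over the 4 libraries. They were fitted with the quasi-likelihood method of edgeR (version 4.0.16, R 4.3.3, default dispersion method of glmQLFit, TMM, Benjamini-Hochberg over all features, threshold 0.05), with library totals over all rows. TMM factors were fitted separately for circles and for host genes, so fold changes of the 2 levels are on different scales. Standard errors were derived from the F statistic. Scripts were tested on simulated data. No source names separate cultures, so p-values measure only the spread between these libraries, which may be technical. DESeq2 1.42.0 was an alternative, as were other scalings, filters, gene assignments and each library left out. Named circles were the 2 with most counts per gene (at least 10 counts) and circles of at least 40 counts with a 4-fold change; none met the latter, and the other circles named were chosen after their values were seen.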

Additional observations from a re-analysis of the deposited data

Results flagged for a closer look

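Circles of SEPTIN7 pseudogenes lay outside every comparison above. They had 40 and 89 counts in the controls, against 46 and 69 in the knockdown libraries, or 8.47 and 15.99 counts per 100000 in the controls, against 16.3 and 17.7 in the knockdown libraries. The knockdown mean of 16.97 ± 0.989 per 100000 (SD, n = 2) was above the control mean of 12.2 ± 5.32, and both knockdowns lay above both controls, the nearer control by less than the spread of either group. In each of the libraries these counts exceeded those of SEPTIN7 itself.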

How the results depend on the processing

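Of 164 septin circles 125 had 1 to 9 counts, so depth limits most of them to a detection. Among the family values, 52 kept the number of calls of the main fit (or, for a value with no test, moved by no more than 1 SD) and 17 did not. For values of single genes and circles, 187 kept their direction and their side of the threshold. Of the others, 22 came past the threshold, 3 lost it and 11 changed sign. The number of septin circles called was 0, and 3 with at least 5 counts in each of 2 libraries, 2 with DESeq2 and 2 with the replicate block, all of them short SEPTIN10 circles. Of all circles 12.1%, 5.03% and 7.51% were called in these settings. With each library left out it ran from 0 to 7, that of septin host genes called from 0 to 3, and that of partner genes called from 0 to 18. With library-size scaling, and with circles that name 1 gene, 1 partner gene was called, KIF20B. Of all host genes 0.668% and 1.51% were called in these settings. The number of septins with unequal circle use was 0 at 40 counts a circle (SEPTIN10 at an adjusted p of 0.867 in edgeR, with only 3 circles left and none of the short ones), and ran from 0 to 3 with each library left out.

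Some alternatives were chosen after seeing the data. Leaving out SEPTIN10 gave a log2 ratio of the summed level of -0.98, against -0.46, and a length difference of -92.5 nt, against 0. With AG-GT circles alone that log2 ratio was -0.34. The SEPTIN10 host fold change of 0.00 (log2) became -0.28 with library-size scaling, -0.058 with no filter, -0.012 at 40 counts, -0.016 with circles that name 1 gene and -0.023 with exon circles, and ran from -0.32 to 0.52 with each library left out. The same ranges were -1.02 to 0.23 for the SEPTIN2 circle 241325993 to 241343093, -2.91 to 4.06 for 241315935 to 241337765, -0.52 to 0.21 for the SEPTIN10 circle from b2 to b7, and -0.059 to 0.69 for the SEPTIN11 circle 76996425 to 77020670. The cause was not tested, beyond the fewer circles and libraries in such fits. Over all host genes the median log2 fold change was -0.26 after TMM scaling and -0.58 after scaling by library size.

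Deviations of same-numbered libraries from their group means correlated at 0.0806 over 4944 circles. Each group gives only 1 such deviation, and the 2 controls correlated at 0.66 where the 2 knockdowns did at 0.90. The value therefore cannot decide whether the replicate numbers pair the libraries. With the replicate block, 306 host genes passed in edgeR, against 37 without it, and 477 genes passed the test of circle use, against 95. Without control replicate 1 the host gene count was 1659, without control replicate 2 2793, and without either knockdown replicate 0. DESeq2 called 185 host genes and 1085 circles, where edgeR called 37 and 0 (2925 circles at an unadjusted p under 0.05).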

Other observations

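Low-count SEPTIN10 circles that used the donors of the short circles were few. The circle from b1 to b5 (chromosome 2, 109567815 to 109593119, 732 nt) had 0 counts in the controls, against 0 and 3 in the knockdown libraries. Antisense circles that name a septin had 27 and 26 counts in the controls, against 6 and 10 in the knockdown libraries, or 5.72 and 4.67 against 2.12 and 2.56 per 100000. Of the 6 SEPTIN6 circles, 4 span MIR766, a microRNA gene inside SEPTIN6 (chromosome X, 119646738 to 119646848, RefSeq on GRCh38.p14), and 0 of them include it in an exon block.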
